A study of Mus musculus with 2 samples.

Results

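Interferon-high type 2 innate lymphoid (ILC2)-like cells were chosen by summed counts of distinct RNA molecules (UMIs) in each cell, among lymphoid progenitors sorted from mouse fetal liver. A cell was taken where Il13, Il17rb, Icos, Stab2, Slc38a4 and Rxrg together had at least 4 UMIs, where the natural killer (NK) genes Klrd1, Klrk1, Klrc1 and Ncr1 and the lymphoid tissue inducer (LTi) genes Il22, Il23r, Il17re, Ccr6 and Cxcr5 each summed to under 4, and where Igtp, Gbp2 and Iigp1 together had at least 3. An interferon sum of 3 or more was met by 1431 of the 8583 fetal liver cells kept. All conditions together were met by 187 of these fetal liver cells, with 15841 cells kept in both libraries. The 187 cells are called interferon-high ILC2-like cells. They were set against 1531 interferon-low ILC2-like cells of the same fetal liver library, which met the first 3 conditions and had an interferon sum under 3. They were also set against 661 interferon-high NK or type 1 innate lymphoid (ILC1)-like cells of that library and against 1012 ILC2-like cells of the bone marrow library.

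Both libraries were sorted from untreated wild-type B6 mice as α4β7-positive lymphoid progenitors (αLPs), which lacked lineage markers, Flt3 and CD25 and carried CD45 and CD127. One library came from fetal liver, taken at E14.5 per the series' design text, and one from bone marrow of adult mice. The labels give an age of 6 to 8 weeks for both samples, which for the fetal one goes against the design text and was not used. How many embryos or mice were pooled is not stated.

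Background on the cells and genes is as follows. ILC2s are tissue lymphocytes without rearranged antigen receptors that depend on Gata3 and Rora and release the type 2 cytokines interleukin 13, interleukin 5 and interleukin 4. Interferons bind receptors that signal through Janus kinases. Type II interferon, encoded by Ifng and typically made by NK cells, ILC1s and T cells, acts at promoter elements called GAS. Type I interferons act mainly at elements called ISRE, which Irf1 and Irf8 can also bind. Among the targets in mice are the immunity-related GTPases (IRGs, among them Igtp, Iigp1 and Irgm1) and the guanylate-binding proteins (GBPs), which attack the vacuoles of intracellular parasites and bacteria.

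The interferon sum, the ILC2 sum and the NK sum chose the cells, so every gene level in the contrast with interferon-low cells or with NK or ILC1-like cells describes that choice and is no finding of its own. Marrow cells were taken whatever their interferon sum, so interferon genes in that contrast describe the choice too. With 1 library per tissue no test between groups was made. Levels are UMIs summed over the cells of a group per 1000000 UMIs of that group (CPM). Ratios are log2 of CPM in interferon-high ILC2-like cells over CPM in the other group, with exact 95% intervals that, like all intervals here, cover counting error only. Fewer cells that carry a transcript and less transcript per cell cannot be told apart in summed counts. A gene counted as measured where the higher group reached 10 CPM, and as higher or lower where the levels differed at least 2-fold. A gene that reached 10 CPM only through the group where it was high had its direction fixed by that minimum, so the counts describe the groups.

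The fetal liver library held 8946 barcodes and the bone marrow library 7367, of which 19 were the same in both. One interferon-high ILC2-like cell carried such a barcode. The interferon-high ILC2-like cells were deep, with a median of 13166 UMIs and 2806 genes per cell, against 11805 UMIs and 2676 genes in interferon-low ILC2-like cells. Interferon-high NK or ILC1-like cells had a median of 10243 UMIs and bone marrow ILC2-like cells 3744, so the same number of UMIs is a stricter condition in the marrow cells. Doublets, droplets with a pair of cells, were not removed.

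Interferon-high cells made up 10.9% of fetal liver ILC2-like cells (187 of 1718, exact Clopper-Pearson interval 9.45% to 12.5%). In the same library they made up 41.8% of NK or ILC1-like cells (39.4% to 44.3%), 2.92% of LTi or ILC3-like cells (1.71% to 4.63%) and 9.90% of cells that reached none of the 3 sums. The share was 41.4% of cells that reached more than 1 sum and 16.7% of all kept fetal liver cells (15.9% to 17.5%), above the ILC2-like share. In bone marrow, 0 of 1012 ILC2-like cells had an interferon sum of 3 or more, which allows a share of up to 0.296%, and 17 of all 7258 kept cells did. After every cell was thinned to 4000 UMIs before the rule was applied, 31 of 736 fetal liver ILC2-like cells were interferon-high (4.21%, 2.88% to 5.93%), against 0 of 293 in bone marrow, which allows up to 1.02%. The thinned fetal liver share was 17.7% of NK or ILC1-like cells, 5.96% of cells that reached none of the 3 sums and 7.41% of all cells (6.84% to 8.00%). Thinning left out 683 fetal liver and 4371 bone marrow cells as too shallow. These limits take 3 counts, and the exact upper bounds for the marrow are 0.364% and 1.25%. At 2000 UMIs per cell, 5 of 217 fetal liver ILC2-like cells (2.30%, 0.752% to 5.29%) and 0 of 344 marrow ones reached 3. At least 1 UMI of the sum was seen in 8.29% (4.99% to 12.8%) and 3.78% (2.03% to 6.38%) of them, intervals that overlap. Of all fetal liver cells at that depth 17.0% had at least 1 UMI, and of those that reached none of the 3 sums 15.9%. Tissue, age and library cannot be told apart here.

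**Figure D1:**
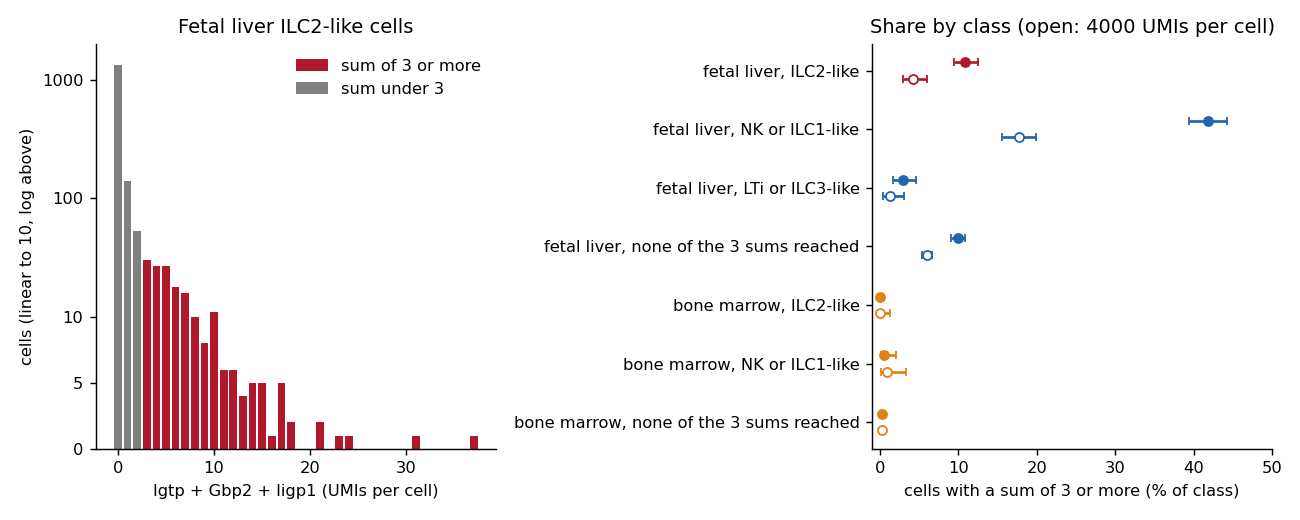
Left, number of fetal liver ILC2-like cells (axis linear to 10 and logarithmic above) at each sum of Igtp, Gbp2 and Iigp1 UMIs, with the 187 cells at 3 or more in red and the 1531 under 3 in grey. Right, share of cells with a sum of 3 or more in each class of both libraries, with exact 95% intervals, from all UMIs (filled) and after thinning to 4000 UMIs per cell (open). The sums fall off without a gap at 3, and the fetal liver NK or ILC1-like share of 41.8% lies above the ILC2-like share of 10.9%.

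The interferon sum had no gap at the threshold. Among fetal liver ILC2-like cells 1339 had a sum of 0, 139 a sum of 1 and 53 a sum of 2, just outside, and 30 had a sum of 3, just inside. The interferon-high cells had a median sum of 6 and a highest of 37, with 84 cells at 3 to 5 and 40 above 10. Igtp was detected in 174 of the 187 cells, Gbp2 in 121 and Iigp1 in 105. All 3 were seen together in 68 cells, a pair in 77 and a single one in 42. On the ILC2 side the median sum was 9, with 18 cells at the minimum of 4, and 41 more cells with a sum of 3 would have met the other conditions. The NK sum was 0 in 153 of the 187 cells and the LTi sum in 165. A further 116 cells met every condition but the NK one, 14 of them with an NK sum of 4 or 5.

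Of the 11 genes of the ILC2 marker list 6 belong to the rule, which fixes their presence. The other 5 were all detected in the interferon-high cells and 4 reached 10 CPM, with a summed level of 1017 CPM, against 944 CPM in interferon-low cells and 640 CPM in interferon-high NK or ILC1-like cells. Of these, Arg1, the arginase of ILC2s and their progenitors, stood at 558 CPM in interferon-high and 344 CPM in interferon-low cells. Rora stood at 271 and 358 CPM and Gata3 at 178 and 227 CPM in the same order. Il1rl1, the interleukin 33 receptor of mature ILC2s, was low at 10.4 and 14.9 CPM, and Il5 had a single UMI in the 187 cells. Among the rule's own ILC2 genes, Il13 was at 81.7 CPM in interferon-high and 44.9 CPM in interferon-low cells. Slc38a4 was at 45.1 and 87.2 CPM, Rxrg at 92.9 and 161 CPM, Icos at 482 and 449 CPM, and Stab2 at 65.2 and 50.8 CPM. Genes of the ILC2 sum thus lay on both sides of the interferon-low level.

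The sort was visible in the same cells. Flt3 had 0 UMIs in the interferon-high cells and Il2ra, which encodes CD25, had 1. Il7r, which encodes CD127, was at 90.2 CPM in interferon-high and 129 CPM in interferon-low cells. The integrin chains of α4β7 lay on opposite sides, with Itga4 at 103 and 190 CPM and Itgb7 at 77.5 and 39.2 CPM in interferon-high and interferon-low cells.

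Markers of other cells were low or absent in most lists. Csf1r and Adgre1 of macrophages, Elane and Ngp of granulocytes, Alas2 of erythroid cells, Ttr of hepatocytes, Pax5, Ms4a1 and Igll1 of B cells, and Cdh5, Kdr and Col1a1 of vessels and stroma were all at 0. Other genes of those lists were detected, in all 7 of 9 macrophage, 3 of 5 granulocyte, 5 of 8 erythroid and 4 of 6 hepatocyte genes. So were 4 of 8 B lineage and 2 of 8 vessel or stroma genes, with 1 gene over 10 CPM in each. B lineage UMIs were seen in 33.7% of interferon-high and 37.5% of interferon-low cells. The summed level of those lists ranged between 6.94 and 33.9 CPM in interferon-high cells and between 7.04 and 47.0 CPM in interferon-low cells. The mast cell list was carried by Cpa3 alone, at 151 CPM, with the other 5 genes at 0. The dendritic list was likewise carried by a single gene, Irf8, an interferon target in many cells. Of 13 NK or ILC1 markers 12 were detected and 4 reached 10 CPM, with Klrb1c at 0. The whole NK or ILC1 list summed to 1026 CPM in interferon-high cells (median 10 UMIs per cell, highest 104), 854 CPM in interferon-low cells (median 2, highest 330) and 3740 CPM in interferon-high NK or ILC1-like cells (median 31, highest 319). Ifng, Gzma and Ccl5 belong to it, so its level and the cytokine results below share genes. The T cell list, carried by Cd3g, summed to 426 CPM in interferon-high and 518 CPM in interferon-low cells, with 5 of 5 markers detected. Its other genes were not found by name in the matrices and could not be measured. The LTi or ILC3 list summed to 387 and 300 CPM with Il23r at 0 in interferon-high cells. The ILC progenitor list summed to 325 and 565 CPM, and the early lymphoid list to 46.7 and 79.7 CPM with Dntt and Flt3 at 0 in interferon-high cells.

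Between interferon-high and interferon-low ILC2-like cells, 117 of 6191 measured genes were at least 2-fold higher (1.89%) and 90 were at least 2-fold lower (1.45%), with a median log2 ratio over all measured genes of -0.03. The 117 were led by GTPases of the IRG and GBP families, other interferon targets, antigen presentation genes and Ifng. The 90 included fetal growth genes and a pair of progenitor transcription factors. Cell cycle, glycolysis, NF-kB and most ILC2 genes differed by less than 2-fold.

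The IRG and GBP families were low in interferon-low ILC2-like cells. Of 22 listed members, 3 belong to the rule, and 7 of the others reached 10 CPM. All 7 were at least 2-fold higher, with a median log2 ratio of 4.09 beside -0.03 for all genes. Among them Ifi47, Irgm1, Gbp7, Gbp4, Tgtp1 and Tgtp2 were under 10 CPM in interferon-low cells. They were measured only through the interferon-high cells, which fixed their direction, so the count and the median describe the choice of cells. Ifi47, an IRG, was at 170 CPM in interferon-high and 9.28 CPM in interferon-low cells (log2 ratio 4.19, 3.94 to 4.45). Irgm1, which regulates the other IRGs, was at 90.6 and 8.72 CPM (3.38, 3.09 to 3.67). Gbp7 was at 96.4 and 8.06 CPM and Gbp4 at 65.9 and 3.88 CPM. These genes were seen in a majority of interferon-high cells, with Ifi47 in 142 of 187, Gbp7 in 109, Irgm1 in 108 and Gbp4 in 103.

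Tgtp1 and Tgtp2, IRGs that lie side by side and are close copies, were at 40.5 and 20.8 CPM in interferon-high cells and at 1.63 and 0.51 CPM in interferon-low cells. Reads of such copies could be split or lost in counting, so the values of either gene, and of the GBPs as a family, are uncertain. Members under 10 CPM that were detected had more in the interferon-high cells, among them Irgm2 (9.25 and 0.77 CPM), Gbp3 (9.25 and 1.02 CPM) and Gbp9 (4.63 and 0.66 CPM). Gbp2b had no UMI in either group. The rule's own Igtp was at 315 and 8.26 CPM, Gbp2 at 114 and 3.57 CPM and Iigp1 at 128 and 0.66 CPM.

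The promoters of these GTPases were searched for the 2 elements through which interferon receptors are known to act. The following 120 bases lie directly before the RefSeq start sites (build GRCm38.p6, written 5′ to 3′ on the gene's strand), with capitals marking each match to the ISRE pattern of GAAA, any 2 bases and GAAA, or to the GAS pattern TTCNNNGAA, on either strand. They are shown for Igtp and Gbp2 of the rule, for 4 GTPases outside it, for Irf1 as a transcription factor and for Isg15 as a type I interferon gene.
Igtp (chr11:58199436-58199555, plus strand): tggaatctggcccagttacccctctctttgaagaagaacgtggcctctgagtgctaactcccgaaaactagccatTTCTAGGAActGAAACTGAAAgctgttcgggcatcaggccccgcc
Tgtp1 (chr11:48992247-48992366, minus strand): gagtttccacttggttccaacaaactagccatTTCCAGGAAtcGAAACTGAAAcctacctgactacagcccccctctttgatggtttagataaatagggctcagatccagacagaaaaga
Irgm1 (chr11:48871421-48871540, minus strand): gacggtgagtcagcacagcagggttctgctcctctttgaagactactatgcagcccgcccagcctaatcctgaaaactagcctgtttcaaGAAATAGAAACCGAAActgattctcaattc
Gbp7 (chr3:142530216-142530335, plus strand): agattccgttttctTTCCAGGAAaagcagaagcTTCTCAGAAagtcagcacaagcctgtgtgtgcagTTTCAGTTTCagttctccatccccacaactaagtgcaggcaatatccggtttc
Gbp2 (chr3:142620543-142620662, plus strand): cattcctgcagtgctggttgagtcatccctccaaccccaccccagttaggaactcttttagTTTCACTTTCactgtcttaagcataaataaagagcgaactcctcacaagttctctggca
Ifi47 (chr11:49076467-49076586, plus strand): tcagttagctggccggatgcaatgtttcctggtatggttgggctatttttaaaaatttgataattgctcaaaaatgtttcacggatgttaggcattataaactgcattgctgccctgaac
Irf1 (chr11:53769894-53770013, plus strand): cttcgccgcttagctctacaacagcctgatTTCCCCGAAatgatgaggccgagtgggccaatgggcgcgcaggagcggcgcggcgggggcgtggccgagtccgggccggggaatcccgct
Isg15 (chr4:156200819-156200938, minus strand): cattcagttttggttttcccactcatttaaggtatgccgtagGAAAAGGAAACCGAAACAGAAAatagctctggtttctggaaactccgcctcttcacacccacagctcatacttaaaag

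In Igtp and in Tgtp1 a GAS match stood directly before an ISRE match, with 2 bases between them. In Igtp the GAS match spanned bases -45 to -37 and the ISRE match bases -34 to -25, counted back from the base before the start site. Irgm1 held a pair of ISRE matches that share 4 bases, Gbp7 held an ISRE match and a pair of GAS matches, and Isg15 held 3 overlapping ISRE matches. Irf1 held a GAS match alone, in the one of its start site windows shown, which was picked because it holds that match, and Ifi47 matched neither pattern in this window, which says only that these letters are not there. Over the longer window of 250 bases before to 50 bases after the start, 12 of the 22 listed IRG and GBP genes had a RefSeq promoter, of which 11 held an ISRE match and 7 a GAS match. Without the genes of the rule, 9 of 10 held an ISRE match and 6 a GAS match. Of the 117 genes at least 2-fold higher, 92 had a promoter, 28 of them with an ISRE match (30.4%) and 23 with a GAS match. Of the 90 genes at least 2-fold lower, 69 had a promoter, with an ISRE match in 4.35% and a GAS match in 13.0%. Over all 27025 genes with a promoter the shares were 3.99% and 9.55%. In the GENCODE annotation of the same build Irgm1 lies at chr11:48861968-48871683 and Igtp at chr11:58199556-58207591. The bases shown for Irgm1 precede its RefSeq start site but lie inside its GENCODE span. A gene with several start sites was counted once if any window matched. The patterns can overlap, as they did in 24 of 32851 windows, and a match is a description of the letters and not of binding.

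**Figure D2:**
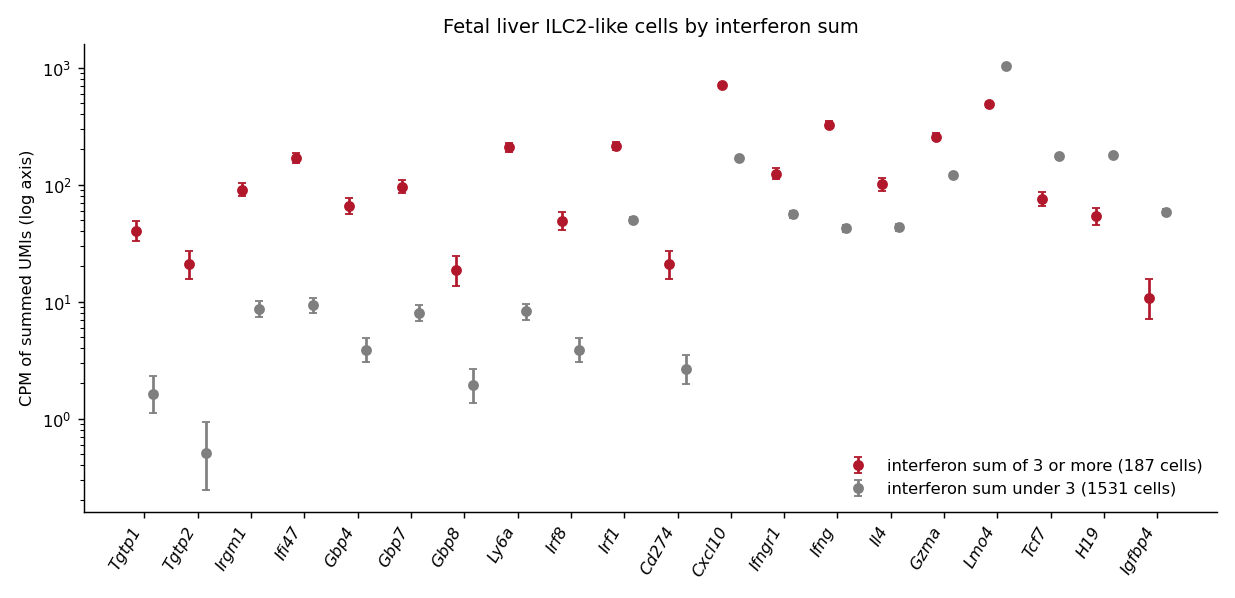
CPM on a log axis in the 187 interferon-high (red, left of each pair) and 1531 interferon-low (grey) fetal liver ILC2-like cells, with exact Poisson 95% intervals. Ifi47 stood at 170 against 9.28 CPM and Ifng at 326 against 42.3 CPM, whereas Lmo4 stood at 485 against 1035 CPM.

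Signalling genes and classical targets of type II interferon were higher as well. Of 16 measured genes of that list 10 were at least 2-fold higher and 0 lower, with a median log2 ratio of 1.41. Over all measured genes 1.89% were higher. Irf1, a target that in turn drives further targets, was at 215 CPM in interferon-high and 49.7 CPM in interferon-low cells (2.11, 1.96 to 2.26). Irf8, a relative of Irf1 that interferons induce in myeloid cells, was at 49.4 and 3.88 CPM (3.67, 3.25 to 4.10). Ly6a, which encodes Sca-1, was the most different gene above 50 CPM outside the rule, at 208 and 8.26 CPM (4.66, 4.40 to 4.92). Cd274, the ligand of the checkpoint receptor PD-1, was at 20.8 and 2.65 CPM, and Cxcl10, a chemokine that attracts Cxcr3-bearing lymphocytes, was at 709 and 170 CPM. Cxcr3 itself was at 64.4 and 15.0 CPM (2.10, 1.82 to 2.38), so a ligand and its receptor were both higher. Gimap4, a lymphocyte GTPase of another family, was at 78.3 and 12.8 CPM (2.61, 2.34 to 2.88). Of the listed genes, Ly6a, Irf8 and Cd274 were measured only through the interferon-high cells, which fixed their direction. The count and the median of the type II list thus describe the choice of cells.

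Receptors and kinases of the pathway differed less. The list of interferon receptors and signal factors had a median log2 ratio of 0.56. In it 5 of 12 measured genes were at least 2-fold higher and 0 lower, beside 1.89% higher over all measured genes. Ifngr1, a chain of the type II interferon receptor, was at 125 CPM in interferon-high and 55.6 CPM in interferon-low cells (1.16, 0.98 to 1.34). Its partner chain Ifngr2 was at 15.0 and 19.2 CPM (-0.35, -0.87 to 0.12) and the kinases Jak1 and Jak2 at 57.8 and 17.7 CPM in interferon-high cells and at 76.9 and 14.8 CPM in interferon-low cells. Socs1, which inhibits the kinases, was at 85.6 and 58.1 CPM (0.56, 0.34 to 0.77). The type I receptor chains Ifnar1 and Ifnar2 were at 11.6 and 30.5 CPM in interferon-high cells and at 13.7 and 19.5 CPM in interferon-low cells.

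Genes known mainly as targets of type I interferon were also higher, at lower levels. Of 13 measured genes of that list 12 were at least 2-fold higher, beside 1.89% of all measured genes, with a median log2 ratio of 1.96. Bst2, a membrane protein that tethers viruses, was at 205 CPM in interferon-high and 50.3 CPM in interferon-low cells, and Zbp1, a sensor of nucleic acids, at 52.0 and 6.73 CPM (2.95, 2.59 to 3.31). Several genes used to recognise a type I response were near 0 in the interferon-high cells, with Ifit1 at 4.63 CPM, Rsad2 and Mx1 at 1.93 CPM each, Ifit3 at 0 and Oas2 at 0. Isg15, a ubiquitin-like modifier, was at 24.3 and 1.99 CPM (3.61, 3.01 to 4.23), but 52.4% of its UMIs in interferon-high cells came from a single cell and 21 of the 187 cells had any. Xaf1 and Rtp4, at 23.9 and 15.8 CPM in interferon-high cells and 3.62 and 2.40 CPM in interferon-low cells, completed the genes of largest ratio in the list. Zbp1, Isg15, Xaf1 and Rtp4 were measured only through the interferon-high cells, which fixed their direction. The count and the median of the list thus describe the choice of cells. Many genes of both target lists answer to either type of interferon, so the lists do not separate them.

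Of the 10 interferon genes listed, Ifng was the sole one detected in the interferon-high cells. Ifnb1, Ifna1, Ifna2, Ifna4, Ifnl2, Ifnl3, Ifne, Ifnk and Ifnz had 0 UMIs, which for each allows up to 1.16 CPM. Ifng, which lies at chr10:118441046-118445892, was at 326 CPM in interferon-high and 42.3 CPM in interferon-low ILC2-like cells (2.95, 2.81 to 3.09). It was detected in 129 of 187 interferon-high cells (69.0%, 61.8% to 75.5%) and in 11.2% of interferon-low cells. Its 846 UMIs were spread out, with 38 in the highest cell, 32.7% in the 10 highest cells and at least 5 UMIs in each of 57 cells. After thinning to 4000 UMIs, 46.5% of interferon-high cells had an Ifng UMI, against 7.04% of interferon-low cells, 64.7% of interferon-high NK or ILC1-like cells and 2.29% of B lineage-like cells, which should not make it. Median depths before thinning were 13166, 11805, 10243 and 10230 UMIs in the same order. Klrd1, an NK receptor gene that the rule limits, had a UMI in 4.28% of thinned interferon-high cells, 93.1% of NK or ILC1-like cells and 15.1% of B lineage-like cells. The part of NK cells in the Ifng level, as doublets or free RNA, was not tested.

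**Figure D3:**
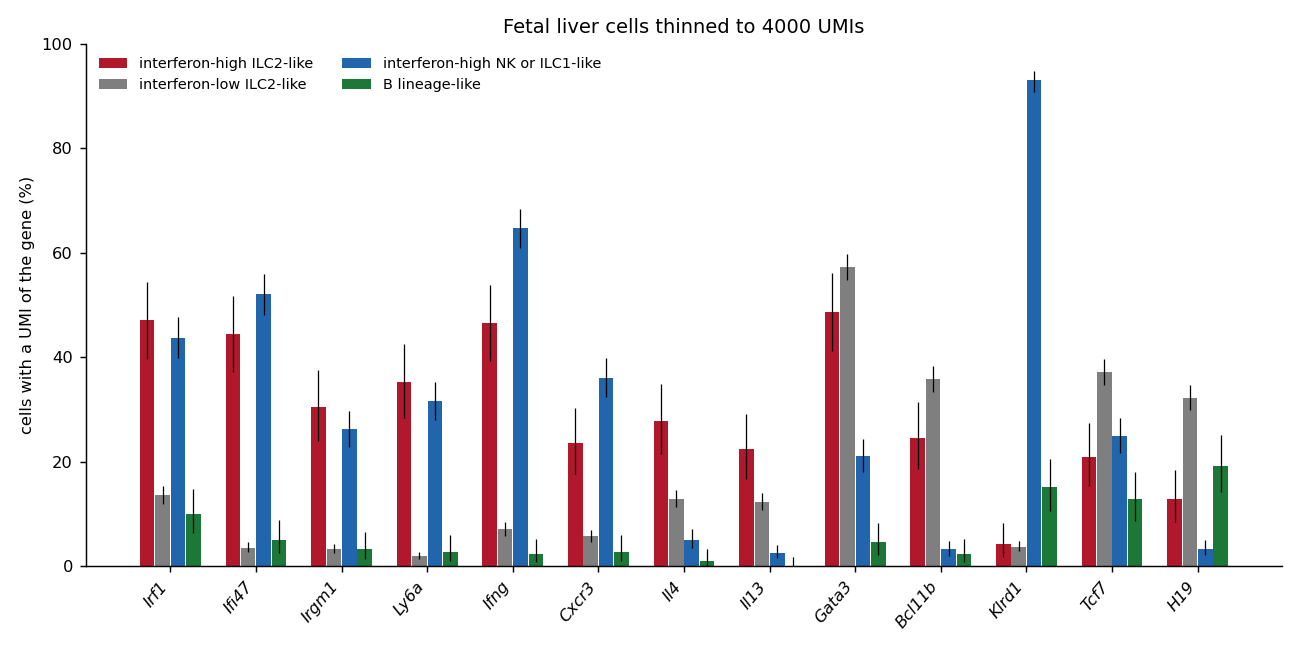
Share of fetal liver cells with at least 1 UMI of each gene after thinning to 4000 UMIs, in interferon-high ILC2-like, interferon-low ILC2-like, interferon-high NK or ILC1-like and B lineage-like cells, with exact 95% intervals. Irf1 reached 47.1% in interferon-high ILC2-like cells and 43.8% in the NK or ILC1-like cells, Ifng 46.5% and 64.7%, and Il13 22.5% and 2.62%.

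Antigen presentation on MHC class I was higher as well. Of 17 measured genes 16 were at least 2-fold higher and 0 lower, with a median log2 ratio of 1.5. The share higher over all measured genes was 1.89%. The light chain B2m was at 1123 CPM in interferon-high and 508 CPM in interferon-low cells (1.14). The heavy chains H2-K1 and H2-D1 were at 360 and 436 CPM in interferon-high cells and at 103 and 157 CPM in interferon-low cells. Tap1, which carries peptides into the endoplasmic reticulum, was at 54.7 and 11.2 CPM (2.29, 1.97 to 2.60), whereas its partner Tap2 was at 42.0 and 39.5 CPM, the gene of the list within 2-fold. H2-Q4, a nonclassical heavy chain, had a log2 ratio of 3.13 and Tapbpl, which edits the bound peptides, at 58.2 and 14.2 CPM. The immunoproteasome subunits Psmb9 and Psmb10 were at 305 and 522 CPM in interferon-high cells and at 76.2 and 126 CPM in interferon-low cells. MHC class II stayed low, with Cd74 at 7.33 and 9.08 CPM and Ciita, its master regulator, at 0 and 0.26 CPM.

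Effector genes other than Ifng differed by less. Of 10 measured cytokine and granzyme genes 3 were at least 2-fold higher, namely Ifng, Il4 and Gzma, and 0 were lower. The shares over all measured genes were 1.89% higher and 1.45% lower. Il4, the type 2 cytokine gene that neighbours Il13, was at 101 CPM in interferon-high and 43.2 CPM in interferon-low cells (1.23, 1.02 to 1.43) and was seen in 50.8% and 30.2% of them. The Il13 level given above differed in the same direction, but Il13 is part of the rule. Gzma, a granzyme of NK cells, was at 258 and 121 CPM (1.09, 0.97 to 1.22), with 14.9% of its UMIs in interferon-high cells in a single cell. Csf2, a growth factor of myeloid cells, was at 50.5 and 26.2 CPM (0.95, 0.66 to 1.23). The chemokine Ccl5 lay the other way, at 396 and 666 CPM.

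The genes lower in interferon-high cells included several of fetal growth. Of 10 measured genes of that list 4 were at least 2-fold lower and 0 higher, with a median log2 ratio of -0.66. Over all measured genes 1.45% were lower. H19, an imprinted noncoding RNA, was at 53.6 CPM in interferon-high and 178 CPM in interferon-low cells (-1.73, -1.99 to -1.49). Its imprinted neighbour Igf2, a growth factor, was at 12.7 and 31.0 CPM. Hmga2, a chromatin protein of fetal stem cells, was at 23.5 and 72.9 CPM (-1.63, -2.03 to -1.26), and Cdkn1c, an imprinted cell cycle inhibitor, was at 18.5 and 37.6 CPM. Igfbp4, which binds insulin-like growth factors, had the lowest ratio above 50 CPM, at 10.8 and 58.5 CPM (-2.44, -3.04 to -1.90). Tnni1, a troponin, stood at 16.2 and 58.9 CPM, Homer2 at 25.1 and 73.4 CPM, the linker histone gene H1fx at 18.9 and 50.3 CPM, and Akr1c13 and Dhrs2, which encode reductases, at 23.1 and 22.4 CPM in interferon-high cells and at 57.7 and 52.9 CPM in interferon-low cells.

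Most transcription factors of ILC2s and their progenitors differed by less than 2-fold. Of 18 measured genes 0 were higher and 2 lower, with a median log2 ratio of -0.38. The share lower over all measured genes was 1.45%. Tcf7, which encodes the early lymphoid factor TCF-1, was at 76.0 CPM in interferon-high and 176 CPM in interferon-low cells (-1.22, -1.43 to -1.01), and Lmo4 at 485 and 1035 CPM (-1.09, -1.18 to -1.01). Zbtb16, which encodes PLZF and marks innate lymphoid precursors, had a log2 ratio of -0.96 (-1.37 to -0.57), and Tox, another factor of those precursors, was at 40.5 and 68.8 CPM. Gata3 (-0.35) and Bcl11b (-0.40) were nearer to the interferon-low level, and Id2 was slightly above it (0.23). Among the ILC2 receptor genes 0 of 11 measured passed 2-fold in either direction, with a median of 0.02.

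Cell cycle and stress lists lay close to the median of all genes. The S phase list had a median log2 ratio of 0.05 over 42 genes and the G2 and M phase list 0.03 over 45, with 0 genes past 2-fold in either. The median G2 and M count per cell was nonetheless higher in interferon-high cells, at 58.4 per 10000 UMIs against 41.7 in interferon-low cells. Among ILC2-like cells with a low G2 and M share 63 were interferon-high and 796 interferon-low, against 187 and 1531 among all. Glycolysis genes had a median of 0.25, genes of NF-kB and TNF signalling 0.02 and immediate early genes -0.03, with Ier3 (-1.02) the single one past 2-fold. In the survival list Bak1, which opens the mitochondrial membrane in cell death, was the single one at least 2-fold higher, at 48.2 and 23.4 CPM, and Bcl2, which opposes it, was at 22.4 and 43.5 CPM (-0.96, -1.37 to -0.57).

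**Figure D4:**
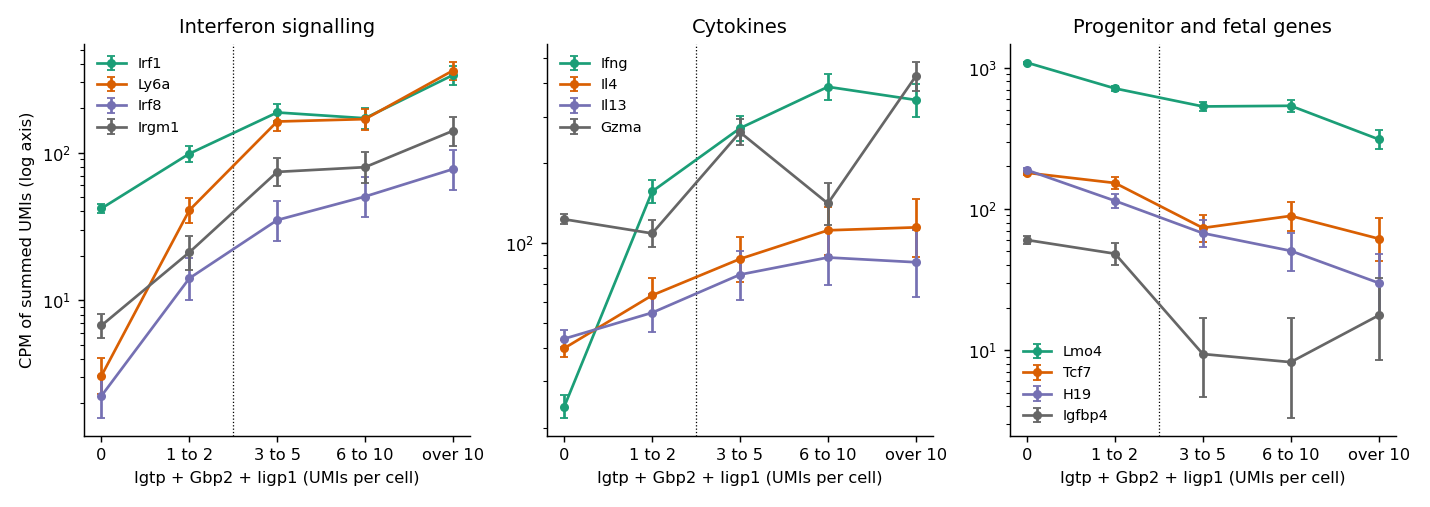
CPM on a log axis against the sum of Igtp, Gbp2 and Iigp1 UMIs per cell in fetal liver ILC2-like cells, with exact Poisson 95% intervals, for cells below (1339 and 192) and above (84, 63 and 40) the dotted threshold. Irf1 lay at 41.9 CPM at a sum of 0 and 336 CPM above 10, and Lmo4 at 1086 and 311 CPM.

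Levels differed along the interferon sum on both sides of the threshold, though not at every step. Irf1 was at 41.9 CPM in cells with a sum of 0, 98.5 CPM at 1 to 2, 187 CPM at 3 to 5, 171 CPM at 6 to 10 and 336 CPM above 10. Ly6a took the values 3.08, 40.8, 163, 169 and 361 CPM over the same steps. Ifng was at 24.1, 156, 271, 388 and 347 CPM, so it was already higher below the threshold and did not differ between the last 2 steps beyond their counting intervals. In the opposite direction Lmo4 was at 1086, 714, 532, 538 and 311 CPM and H19 at 188, 114, 67.3, 50.5 and 29.9 CPM. Bcl11b was at 133 CPM at a sum of 0, 125 CPM at 3 to 5 and 58.1 CPM above 10. Igfbp4 took 60.2 and 48.2 CPM below the threshold and between 8.22 and 17.6 CPM above it, on 7 to 11 UMIs per step. Median depth was 11706 UMIs at a sum of 0 and 14007 UMIs above 10. The part of depth in these steps was not tested.

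Within the interferon-high cells, those with and without Ifng differed little in most interferon targets. Ifng was not part of the rule, and 129 cells had at least 1 of its UMIs while 58 had none, with median interferon sums of 6 and 5 and median depths of 13648 and 12498 UMIs. Irf1 was at 214 CPM in cells with Ifng and 217 CPM in cells without (-0.02, -0.29 to 0.25). Ifi47, Gbp7, Cxcl10 and Psmb9 differed by at most 0.09 on the log2 scale. Among interferon genes, Ifngr1 was at 140 and 85.8 CPM (0.71, 0.31 to 1.13) and H2-K1 at 388 and 292 CPM (0.41, 0.19 to 0.63), higher with Ifng. Isg15 was at 13.0 and 52.3 CPM (-2.01, -2.81 to -1.24), with 52.4% of its UMIs in the single cell named above. Outside them, Cxcr3 was at 76.8 and 33.5 CPM (1.20, 0.58 to 1.87) and Il4 at 116 and 64.4 CPM (0.85, 0.39 to 1.33), higher with Ifng. Gzma was at 186 and 437 CPM (-1.24, -1.46 to -1.01) and Lmo4 at 410 and 672 CPM (-0.71, -0.88 to -0.55), lower with Ifng. Klrd1 was at 15.2 and 21.5 CPM (-0.50, -1.44 to 0.48), an interval too wide to give a direction for this NK receptor, which the rule also limits. Other genes that NK cells express did not share a direction. Higher with Ifng were Fcer1g at 271 and 166 CPM (0.70, 0.42 to 1.00), Cd160 at 117 and 76.5 CPM (0.61, 0.19 to 1.06) and Ccl5 at 416 and 347 CPM (0.26, 0.05 to 0.47). Tyrobp at 181 and 190 CPM (-0.08, -0.36 to 0.22) and Tbx21 at 9.74 and 8.05 CPM (0.28, -1.12 to 1.90) had intervals that include 0. The same held for Xcl1 at 3.79 and 0 CPM, and Gzma, given above, was lower with Ifng. The part of NK cell RNA in these differences was not tested.

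Female and male cells were both present. Of ILC2-like cells with Xist and no Y-linked UMIs, 87 of 698 were interferon-high (12.5%, 10.1% to 15.1%), and of those with Y-linked and no Xist UMIs, 57 of 602 (9.47%, 7.25% to 12.1%). The intervals overlap, and how many embryos the cells came from is not known.

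Set against interferon-high NK or ILC1-like cells, the interferon-high ILC2-like cells had similar levels of the IRG and GBP genes and differed in lineage genes. Of 6208 measured genes 144 were at least 2-fold higher (2.32%) and 230 at least 2-fold lower (3.7%), with a median log2 ratio of 0.03. Of 9 measured IRG and GBP genes outside the rule 0 passed 2-fold, with a median of -0.18. Irgm1 was at 90.6 CPM in the ILC2-like and 85.1 CPM in the NK or ILC1-like cells (0.09, -0.13 to 0.31) and Cxcl10 at 709 and 651 CPM (0.12, 0.05 to 0.20). Both groups were chosen for Igtp, Gbp2 and Iigp1, which fixes part of this likeness. In MHC class I 4 of 19 measured genes were at least 2-fold lower in the ILC2-like cells and 0 higher (median -0.41), with H2-K1 at 360 and 734 CPM (-1.03, -1.13 to -0.93). Ifngr1 was at 125 and 328 CPM (-1.40, -1.57 to -1.23). Ifng was at 326 and 494 CPM (-0.60, -0.71 to -0.49).

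Lineage genes separated these cells as the rule required. Cyp11a1, the enzyme of the first step of steroid synthesis, was at 52.8 CPM in ILC2-like and 1.59 CPM in NK or ILC1-like cells (5.05, 4.20 to 6.04). Bcl11b, a transcription factor of T cells and ILC2s, was at 100 and 7.57 CPM (3.73, 3.31 to 4.17). Cpa3, a mast cell carboxypeptidase, Il4 and Calca, which encodes the neuropeptide CGRP, had ratios of 2.98, 2.58 and 2.30. The neuropeptide gene Cck had a ratio of 3.25, but it was seen in 11 of the 187 cells, 45.0% of its UMIs came from a single cell, and among cells without an Ifng UMI the ratio was -1.61. Klri2, an NK receptor gene, had 0 UMIs in ILC2-like and 447 in NK or ILC1-like cells, at least 51.3-fold lower against a limit of 3 counts over the group. The chemokine genes Ccl3, Xcl1 and Ccl4 were at 1.54, 2.70 and 3.08 CPM in ILC2-like cells and at 74.8, 64.1 and 63.2 CPM in NK or ILC1-like cells. Cd74, the MHC class II invariant chain, was at 7.33 and 175 CPM (-4.58, -5.31 to -3.93), and the carbonic anhydrase gene Car2 at 10.4 and 169 CPM.

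Set beside the contrast among ILC2-like cells, the same threshold among NK or ILC1-like cells gave smaller ratios. Between interferon-high and interferon-low NK or ILC1-like cells Ifi47 was at 206 and 65.9 CPM (1.64, 1.51 to 1.78), Ly6a at 189 and 70.3 CPM (1.43, 1.29 to 1.56) and Ifng at 494 and 386 CPM (0.36, 0.29 to 0.42). The corresponding ratios in ILC2-like cells, given above, were 4.19, 4.66 and 2.95. Interferon-low NK or ILC1-like cells had a median interferon sum of 1 and interferon-low ILC2-like cells of 0. H19 was lower in the interferon-high cells of both classes, with 12.9 and 44.6 CPM in NK or ILC1-like cells (-1.79, -2.13 to -1.47).

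**Figure D5:**
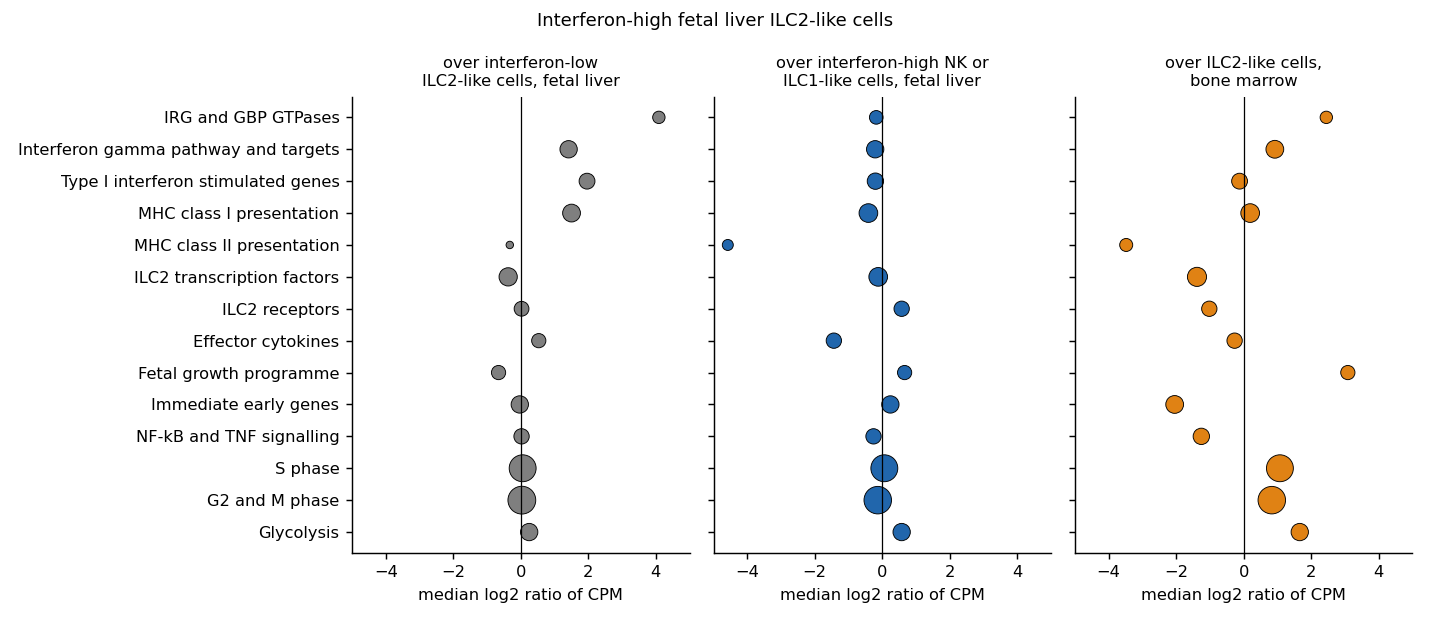
Median log2 ratio of CPM over the measured genes of each list, in interferon-high fetal liver ILC2-like cells over interferon-low ILC2-like cells (grey), over interferon-high NK or ILC1-like cells (blue) and over bone marrow ILC2-like cells (orange). Larger points hold more genes. The IRG and GBP median was 4.09 over interferon-low cells, -0.18 over NK or ILC1-like cells and 2.45 over bone marrow cells.

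Against bone marrow ILC2-like cells far more genes differed. Of 6874 measured genes 650 were at least 2-fold higher (9.46%) and 1313 at least 2-fold lower (19.1%), with a median log2 ratio of -0.10. In the IRG and GBP families 7 of 7 measured genes were at least 2-fold higher in the interferon-high fetal cells, with a median of 2.45. Only the fetal cells were chosen for genes of these families, so this direction describes the choice of cells. Interferon-low fetal cells over marrow cells had 0 of 3 measured genes higher and 2 lower, with a median of -1.56. Irgm1 was at 90.6 CPM in the interferon-high fetal and 14.0 CPM in the marrow cells (2.70, 2.29 to 3.12). Ifi47 was at 170 and 31.1 CPM (2.45, 2.17 to 2.73) and Ifng at 326 and 6.66 CPM (5.61, 5.09 to 6.19). The type I interferon list had 3 of 13 measured genes higher and 2 lower, with a median of -0.12. MHC class I had 4 of 19 higher and 3 lower, with a median of 0.19. B2m was at 1123 and 2034 CPM (-0.86, -0.92 to -0.80) and H2-K1 at 360 and 647 CPM (-0.84, -0.95 to -0.74), both lower in the fetal cells. Interferon-low fetal cells lay further below the marrow, with B2m at 508 CPM (-2.00, -2.04 to -1.96) and H2-K1 at 103 CPM (-2.66, -2.74 to -2.57). Ly6a was at 208 CPM in interferon-high fetal, 8.26 CPM in interferon-low fetal and 146 CPM in marrow ILC2-like cells.

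Ifitm1, an interferon-induced membrane protein gene that primordial germ cells also express, was at 317 CPM in interferon-high fetal cells and had 1 UMI in marrow cells (10.48, 8.00 to 15.78). Gzma was at 258 and 1.33 CPM, Cd3g, a chain of the T cell receptor complex, at 386 and 2.66 CPM, and Cxcr3 at 64.4 and 0.67 CPM. Cck and H19 had 0 UMIs in the marrow cells and were at least 139-fold and at least 80.4-fold higher in the fetal ones, with the Cck level resting largely on the single cell named above. The fetal growth list had 9 of 10 measured genes at least 2-fold higher and a median of 3.09. Interferon-low fetal cells had 10 of 11 higher than marrow cells, with a median of 4.08, so this was no trait of the interferon-high cells alone. Bcas1 had 0 UMIs in the fetal cells and was at least 83.1-fold lower. Areg, which encodes amphiregulin, a tissue repair factor of mature ILC2s, was at 9.64 and 270 CPM (-4.81, -5.44 to -4.24), and the protease inhibitor gene Ctla2a at 5.40 and 370 CPM, with Stxbp6 at 3.08 and 107 CPM. The class I genes H2-Q6 and H2-Q7 had ratios of -4.92 and -4.90, and because they are close copies their single values are uncertain. Immediate early genes were lower in 16 of 17 measured cases (median -2.04), with Fos at 871 and 3971 CPM, and MHC class II genes in 8 of 8 (median -3.48). Interferon-low fetal cells over marrow cells were alike, with 15 of 17 lower (median -2.19) and 8 of 8 (median -3.53). Il7r was at 90.2 and 444 CPM, Gata3 at 178 and 665 CPM and Rora at 271 and 821 CPM. Of the marrow ILC2-like cells 502 had Y-linked and no Xist UMIs and 0 the reverse, whereas the fetal cells were of both sexes. Among cells with Y-linked and no Xist UMIs in both libraries (57 and 502 cells, an alternative chosen after seeing the data), 771 genes were at least 2-fold higher. Age, tissue and library differ together and cannot be told apart.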

How the data were processed

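Per the labels' protocols, sorted cells were loaded on a 10x Chromium 3' kit, sequencing used an Illumina NovaSeq, and the authors counted UMIs and filtered out barcodes not tied to a cell. The deposited matrices hold raw UMI counts per gene and barcode, and the deposited gene and barcode lists hold names only. The submitters' processing notes name mm10 and Seurat 4.0, and the file headers name matrix format version 2 and writer version 3.0.1. For the aligner and annotation nothing is given in these sources.

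Cells with under 500 genes or over 10% mitochondrial UMIs were left out (363 fetal liver and 109 bone marrow barcodes), which left 91285900 and 29941097 UMIs. Doublets were not called, and cells above the 90th percentile of UMIs were left out as an alternative. Counts were summed per group and scaled to CPM, and ratios were given exact conditional intervals, shares Clopper-Pearson and levels Poisson intervals, at 95%. Folds against 0 used a limit of 3 counts. B lineage-like cells had at least 4 UMIs of Cd79a, Cd79b and Ebf1 together and reached none of the ILC2, NK and LTi sums. The steps were checked on simulated counts. Python 3.11.15, numpy 2.4.6, scipy 1.17.1, pandas 2.3.3 and matplotlib 3.10.9 were used.

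Members and lists were chosen with earlier results of these data known. Named genes were the 12 highest and 10 lowest ratios over 50 CPM against interferon-low cells, the 6 highest and 6 lowest in each other comparison, the interferon lists and up to 4 of each other list. Further genes (Bst2, Tap2, B2m, H2-K1, Ccl5, Gata3, Rora, Id2, Fos and others given as context) were added after their values were seen. Promoter sequences are RefSeq's (GRCm38.p6), matched by symbol. The values of a few listed genes are not reported here, though the list counts and medians include them.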

Additional observations from a re-analysis of the deposited data

How the results depend on the processing

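No paired analysis was possible because each tissue is 1 library, and for the same reason no replicate could be left out. Of the counts, shares and medians below, those not named stayed within 1.5 times their main count, or within the interval of their main share or median: a share of 10.9%, 117 genes higher and 90 lower than in interferon-low cells, a GTPase median of 4.09, 144 genes higher than in NK or ILC1-like cells and 650 higher than in marrow cells. Thinning every cell before the rule left 31 interferon-high cells (5 at the depth used for bone marrow), with a share of 4.21%, 864 higher and 474 lower, 1036 over NK or ILC1-like cells and 1531 over marrow cells, over 124000 UMIs in all. Thinning after the rule, added after seeing the data, gave 262 lower and 289 over NK or ILC1-like cells. An interferon sum of at least 6 gave a share of 6.00% and 153 lower. Comparison with cells at a sum of 0 gave a GTPase median of 4.76, and leaving out cells above the 90th percentile of UMIs 3.68. A minimum of 50 CPM gave 41 higher and 14 lower, 30 over NK or ILC1-like cells and 300 over marrow cells. With no minimum and 1 CPM added, the values were 180 higher, 464 lower, a median of 2.73 and 368 over NK or ILC1-like cells. Cells with Xist and no Y-linked UMIs gave a share of 12.5% and 191 lower. Those with Y-linked and no Xist UMIs gave 176 higher, 253 lower and 344 over NK or ILC1-like cells. Cells with a low G2 and M share gave a share of 7.33%, 192 higher, 264 lower and 313 over NK or ILC1-like cells. Cells with no Ifng UMI, added after seeing the data, gave a share of 4.09%, 176 higher, 244 lower and 378 over NK or ILC1-like cells, and Cck over NK or ILC1-like cells turned to -1.61. The causes were not tested. For 125 named gene ratios and list medians under 19 settings, 2172 values were set against their main value. A change of direction was counted only where the main value was at least 2-fold, and this Cck ratio was the 1 such case. Smaller main values that changed sign were not counted as such. Of the 2172 values, a further 341 left the interval of their main value. Of these, 76 of 111 did so under thinning before the rule, 49 of 124 without Ifng and 42 of 125 at a low G2 and M share. With no UMI of the 4 NK genes (added after seeing the data) the 153 cells left gave 110 higher and 103 lower and a GTPase median of 3.93. Depth limits the marrow share, and a lone library per tissue leaves the spread between animals unknown.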
